A study of Mus musculus with 10 samples.

Results

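The genes described here encode neutrophil granule proteins, the 2 calgranulins and the receptor for the neutrophil growth factor G-CSF. They were S100a8, S100a9, Ngp, Camp, Ltf, Lcn2, Mmp8, Mmp9, Elane and Csf3r, chosen by symbol, and all 10 were found among 24394 gene symbols in the expression table, with 13 transcript rows of 66548. The values came from lung tissue of female BALB/c mice that were 8 weeks old when bought, before the protocol began. Saline mice (n = 3) were injected with saline only. OVA mice (n = 3) were sensitized by injection of ovalbumin, an egg protein, in alum and challenged with it through the nose, which provokes allergic airway inflammation. Herb mice (n = 4) went through the same ovalbumin protocol and were also given by mouth an ethanol extract of Descurainia sophia seeds, called DSE in the study. Each library is a separate mouse, and no neutrophils were isolated, so that in these bulk samples fewer cells of a type and less RNA per cell cannot be told apart. In lavage fluid, a different sample, the study counted more neutrophils and eosinophils in OVA than in saline mice. It counted fewer inflammatory cells with DSE than in OVA mice.

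Neutrophils carry their defence proteins in granules that are filled one after another during maturation in the bone marrow. Azurophil granules, filled first, hold neutrophil elastase (Elane) and myeloperoxidase, specific granules hold lactoferrin (Ltf), lipocalin-2 (Lcn2), the cathelicidin precursor (Camp), neutrophilic granule protein (Ngp) and neutrophil collagenase (Mmp8), and gelatinase granules hold gelatinase B (Mmp9). The calgranulins S100A8 and S100A9 form the calcium- and zinc-binding heterodimer calprotectin, which fills the cytosol of mature neutrophils and is among their most abundant proteins. Transcripts of the granule proteins are made mainly by maturing cells in the marrow, whereas those of the calgranulins and Csf3r persist in circulating neutrophils. In the lung, Lcn2 and Ltf are also made by airway epithelium, and Mmp9 by macrophages.

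Levels are given as FPKM, fragments scaled to transcript length and to the number of mapped fragments, so that levels of different genes are compared per length. The estimated depth was 14700000 to 29400000 mapped fragments per library. The libraries differed in scale: the 75th percentile of gene levels was 9.20 to 9.28 FPKM in Saline, 3.68 to 4.58 FPKM in OVA and 5.79 to 7.43 FPKM in Herb, and the median gene differed by -0.75 on the log2 scale in OVA vs. Saline, by 0.48 in Herb vs. OVA and by -0.27 in Herb vs. Saline. The differences of the granule and calgranulin genes are therefore given as deposited and, where marked, after all libraries were rescaled to a common 75th percentile, which brought these medians to 0.07, 0.01 and 0.09. Values without 1 library, single transcript rows and the medians of other gene lists are as deposited unless marked as rescaled. The causes of the difference in scale were not tested. Statements below that groups did not overlap describe single genes only. The share of all genes with such separation was not counted, and the OVA libraries had the lowest 75th percentiles. An exact 0 in this table can be a failed estimate, since Gapdh, a glycolytic enzyme used by all cells, was listed at 0 in 9 of 10 libraries.

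The genes lie on 5 chromosomes of mouse assembly GRCm38.p6, the assembly that mm10 represents. S100a8 (chr3:90669071-90670034) and S100a9 (chr3:90692630-90695721) are neighbours. Camp (chr9:109847377-109849456), Ngp (chr9:110419808-110423012) and Ltf (chr9:111019292-111042766), the 3 genes that were highest over Saline in the Herb libraries, lie on one stretch of chromosome 9. The promoters of S100a8, Camp, Ngp and Ltf are shown because the results turn on these genes. RefSeq gave promoters for 9 of the 10 genes, from 250 bases before to 50 bases after the start. Capitals mark the letters TTNNGNAA, a core that C/EBP factors bind, and GAGGAA, a core that PU.1 binds, on either strand. C/EBP proteins and PU.1 are the transcription factors that direct granulocyte maturation.

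S100a8, chr3:90668821-90669120, plus strand: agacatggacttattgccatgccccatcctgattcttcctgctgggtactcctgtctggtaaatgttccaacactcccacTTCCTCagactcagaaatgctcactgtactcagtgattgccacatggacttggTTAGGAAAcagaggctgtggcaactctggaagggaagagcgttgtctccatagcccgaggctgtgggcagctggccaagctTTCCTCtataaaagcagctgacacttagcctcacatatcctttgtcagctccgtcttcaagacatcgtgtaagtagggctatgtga
Camp, chr9:109849407-109849706, minus strand: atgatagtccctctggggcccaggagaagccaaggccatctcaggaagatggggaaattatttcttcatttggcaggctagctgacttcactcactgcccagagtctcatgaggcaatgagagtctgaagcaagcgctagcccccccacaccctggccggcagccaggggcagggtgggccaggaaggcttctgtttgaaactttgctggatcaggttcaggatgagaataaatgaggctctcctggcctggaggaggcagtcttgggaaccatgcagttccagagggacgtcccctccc
Ngp, chr9:110419558-110419857, plus strand: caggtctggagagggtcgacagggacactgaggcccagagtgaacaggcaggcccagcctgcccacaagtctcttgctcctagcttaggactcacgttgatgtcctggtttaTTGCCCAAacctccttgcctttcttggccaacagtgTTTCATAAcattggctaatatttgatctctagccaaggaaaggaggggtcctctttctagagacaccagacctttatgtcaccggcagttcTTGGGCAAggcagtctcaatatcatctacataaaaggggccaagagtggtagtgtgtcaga
Ltf, chr9:111019042-111019341, plus strand: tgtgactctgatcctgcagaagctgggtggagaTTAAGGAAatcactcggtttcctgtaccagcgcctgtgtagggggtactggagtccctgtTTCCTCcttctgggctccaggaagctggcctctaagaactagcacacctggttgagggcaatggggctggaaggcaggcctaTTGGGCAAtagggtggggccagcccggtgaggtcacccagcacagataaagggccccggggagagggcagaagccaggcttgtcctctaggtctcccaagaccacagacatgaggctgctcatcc

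The Ngp promoter held 3 matches to TTNNGNAA, beginning 138, 102 and 11 bases before the start, and none to GAGGAA. The Camp promoter held neither. In Ltf, TTNNGNAA began 217 and 75 bases and GAGGAA 157 bases before the start, and in S100a8 TTNNGNAA began 117 bases and GAGGAA 170 and 36 bases before it. Over the 9 promoters, TTNNGNAA was found in 6, against 40.7% of 32851 mouse promoters of the same length, and GAGGAA in 6, against 28.3%. The letters TATAAA were found in 3 of the 9, against 13.6% of all promoters. A match describes the sequence only, and binding was not measured.

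Of the 10 genes, 8 had a mean of at least 1 FPKM over the 10 libraries and were tested among 11205 gene sums that passed this filter. Camp, with a mean of 0.996 FPKM, and Elane did not pass it and were tested in a fit with no filter over 20819 genes. In OVA vs. Saline, 4 of the 8 were lower, namely S100a8, Lcn2, Mmp8 and Mmp9, where 57.9% of all genes tested were lower, and Ltf alone was higher, where 3.28% were higher. In Herb vs. OVA, 4 were higher, namely S100a8, Ngp, Lcn2 and Mmp9, where 44.0% of all genes were. In Herb vs. Saline, Ngp and Ltf were higher, where 3.32% of all genes were. After rescaling, the higher genes were Ltf in OVA vs. Saline (24.1% of all genes), Ngp in Herb vs. OVA (0.348% of all genes) and both Ngp and Ltf in Herb vs. Saline (10.6% of all genes), and limma called 0 of the 8 lower, although S100a8 and Mmp8 had an unadjusted p under 0.05 in OVA vs. Saline. Over single transcript rows as deposited, the rows of Camp, Elane and Csf3r did not pass the same filter. Of the rows of the other genes, 5 were lower in OVA vs. Saline against 41.1% of 30194 rows. In Herb vs. OVA 4 were higher against 31.7%, and in Herb vs. Saline 2 were higher against 1.83%. The Ltf row missed the threshold of limma in OVA vs. Saline (adjusted p = 0.0553).

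**Figure D1:**
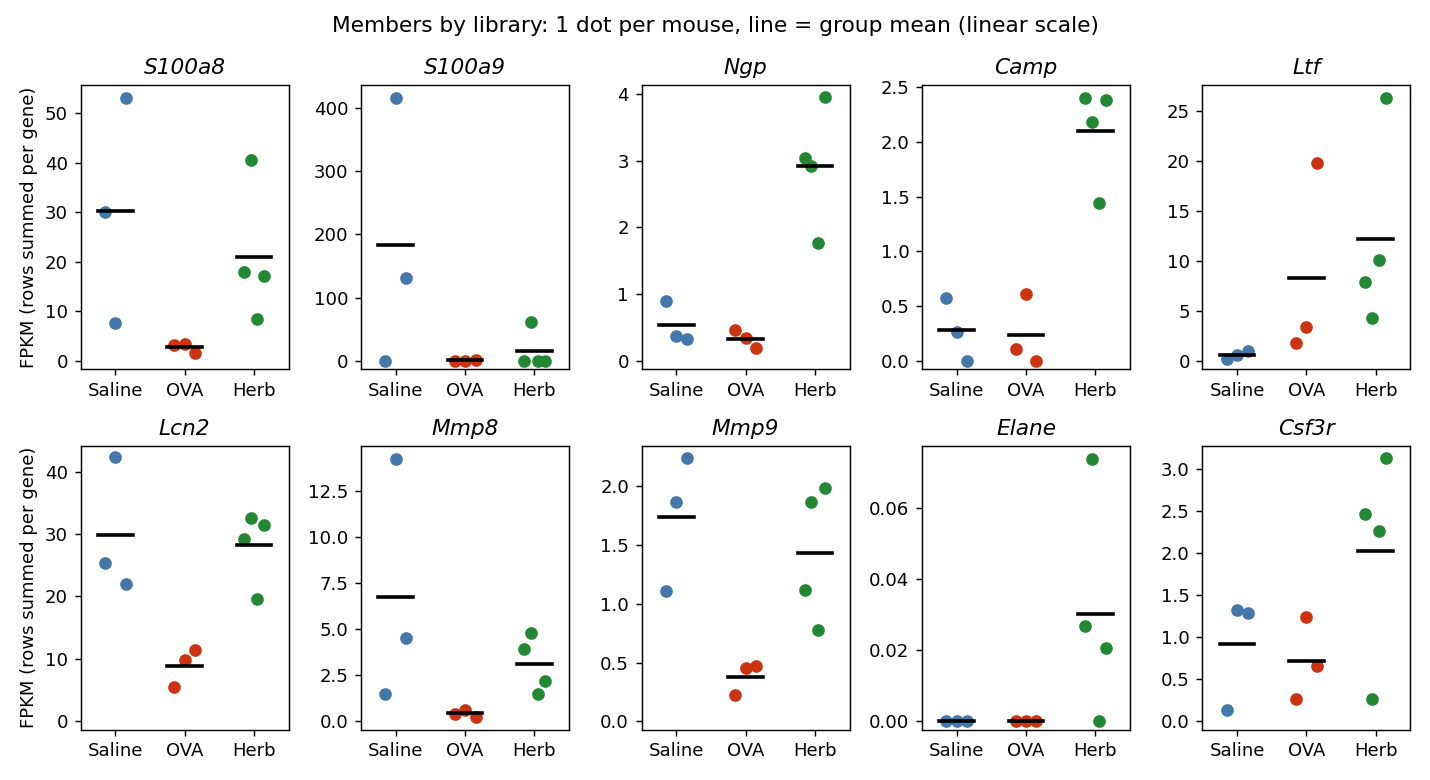
Level of each gene in FPKM (linear axis, rows summed per gene) in the 3 Saline, 3 OVA and 4 Herb libraries, with 1 dot per mouse and a line at the group mean. All 4 Herb libraries stand above the other 6 for Ngp (1.77 to 3.95 FPKM) and Camp (1.44 to 2.40 FPKM), whereas for S100a8, Lcn2, Mmp8 and Mmp9 the OVA libraries stand below the others, and Elane stays under 0.1 FPKM. As deposited, limma called 57.9% of genes lower in OVA vs. Saline, 44.0% higher in Herb vs. OVA and 3.32% higher in Herb vs. Saline. After rescaling, OVA overlaps Saline for S100a8 and Lcn2 and not for Mmp8 and Mmp9. The share of all genes with such separation was not counted.

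**Figure D2:**
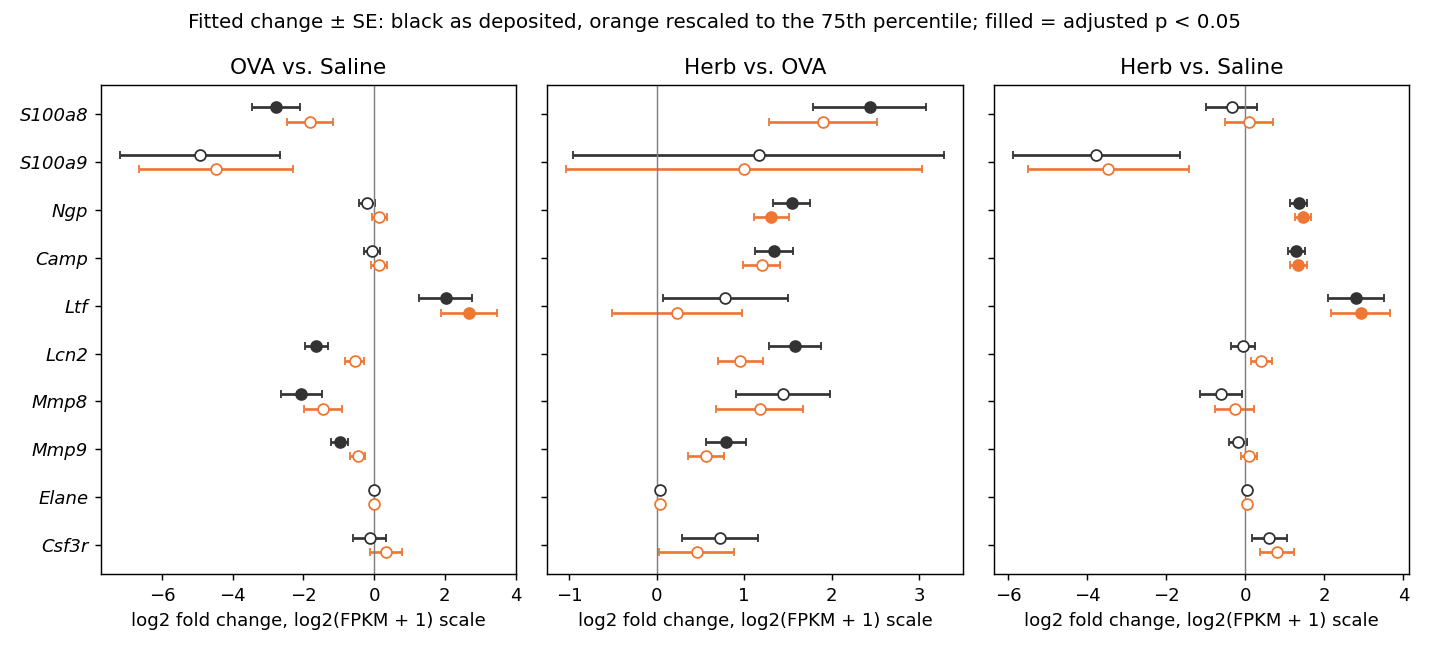
Fitted log2 fold change ± SE of each gene on the log2(FPKM + 1) scale in the 3 comparisons, as deposited (black) and rescaled to a common 75th percentile (orange), with filled points at an adjusted p under 0.05 and Camp and Elane taken from the fit with no filter. In OVA vs. Saline the points of S100a8, Lcn2, Mmp8 and Mmp9, and in Herb vs. OVA those of S100a8, Lcn2 and Mmp9, move towards 0 and lose their fill after rescaling, those of Ngp stay filled in both Herb comparisons, and those of Ltf stay filled against Saline.

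S100a8, the smaller calprotectin subunit, was low in the OVA lungs. Its level was 30.0, 7.61 and 53.1 FPKM in Saline, 3.19, 3.27 and 1.50 FPKM in OVA, and 17.9, 40.5, 8.45 and 17.1 FPKM in Herb. As deposited, the OVA libraries were the 3 lowest of the 10 and did not overlap either other group, whereas Saline and Herb overlapped, and the Saline mice alone spanned 7.61 to 53.1 FPKM. After rescaling, OVA at 2.28 to 5.51 overlapped Saline at 5.26 to 36.5 and stayed below Herb at 9.29 to 34.6. The group means were 30.2 ± 22.7 (SD, n = 3), 2.65 ± 1.00 (SD, n = 3) and 21.0 ± 13.7 FPKM (SD, n = 4). In limma the difference was -2.78 ± 0.69 (log2 fold change ± SE) in OVA vs. Saline with an adjusted p of 0.00657 and 2.43 ± 0.64 in Herb vs. OVA with an adjusted p of 0.0161. After rescaling they were -1.81 ± 0.66 (adjusted p = 0.0535) and 1.90 ± 0.61 (adjusted p = 0.103), and without OVA replicate 3 the second was 2.18 as deposited (adjusted p = 0.0516). Herb vs. Saline gave -0.35 ± 0.64 as deposited and 0.09 ± 0.61 rescaled, neither past the threshold.

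S100a9, the partner of S100a8, did not follow it from library to library. Its 2 rows, NM_001281852 and NM_009114, summed to 0, 416 and 132 FPKM in Saline, 0, 0 and 0.952 FPKM in OVA, and 0, 60.7, 0 and 0 FPKM in Herb. The gene was thus listed at 0 in 6 of 10 libraries, among them Saline replicate 1, where S100a8 stood at 30.0 FPKM. The groups overlapped in each comparison. The difference in OVA vs. Saline was -4.93 ± 2.26 with an adjusted p of 0.0858 in limma. Without Saline replicate 1 it was -7.56 (adjusted p = 0.00626), and Herb vs. Saline became -6.39 (adjusted p = 0.041) in place of -3.77 ± 2.12 (adjusted p = 0.211). Herb vs. OVA gave 1.16 ± 2.12. Rescaled, the 3 differences were -4.47 ± 2.17 in OVA vs. Saline (adjusted p = 0.129), -3.47 ± 2.03 in Herb vs. Saline (adjusted p = 0.268) and 1.00 ± 2.03 in Herb vs. OVA (adjusted p = 0.787). Row NM_009114 alone was listed above 0 in 2 libraries, Saline replicates 2 and 3, at 52.2 and 21.5 FPKM, and differed by -3.41 ± 1.15 in OVA vs. Saline (adjusted p = 0.0379 over rows).

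Between the rows of S100a8 and S100a9 the table lists 3 transcript models assembled from the reads, with no symbol. Their position in the table was taken as their place between the 2 genes, since the table gives no coordinates. Adding them to S100a9, a choice made after the values were seen, gave 53.6, 506 and 180 FPKM in Saline, 5.91, 8.55 and 4.17 FPKM in OVA, and 38.9, 90.7, 19.1 and 31.1 FPKM in Herb. In this sum no library was at 0, and the OVA libraries were again the 3 lowest, without overlap. The difference became -4.61 ± 0.78 in OVA vs. Saline (adjusted p = 0.000811), 2.49 ± 0.73 in Herb vs. OVA (adjusted p = 0.0229) and -2.13 ± 0.73 in Herb vs. Saline (adjusted p = 0.0584). Whether these models are S100a9 transcripts was not tested.

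**Figure D3:**
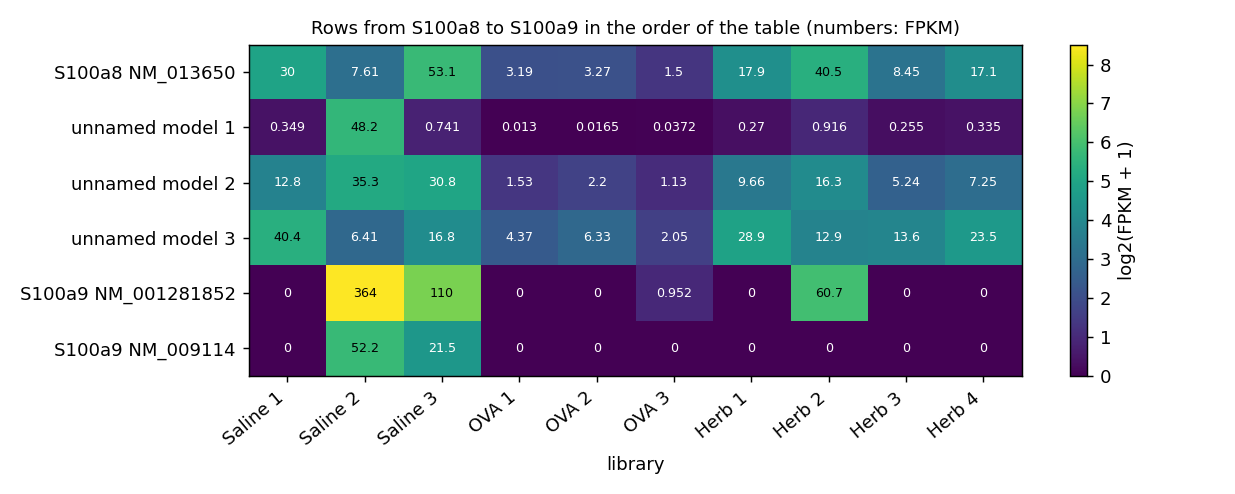
Heat map of log2(FPKM + 1), with the FPKM printed in each cell, for the S100a8 row, the 3 unnamed models listed after it and the 2 S100a9 rows, in the 10 libraries. The S100a9 rows are at 0 in 6 libraries in which S100a8 and at least 1 unnamed model are above 1 FPKM. The OVA columns hold the 3 lowest values in the S100a8 row and in each unnamed model. In the last of these models OVA replicate 2 (6.33 FPKM) lies close to Saline replicate 2 (6.41 FPKM). In the S100a9 rows Saline and Herb libraries are also at 0, so that OVA does not stand apart.

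Lcn2 had the highest mean level of the specific granule genes among the 10. Lipocalin-2 starves bacteria of iron by binding their siderophores. Lcn2 stood at 25.3, 42.3 and 21.9 FPKM in Saline, 5.53, 9.87 and 11.4 FPKM in OVA, and 29.1, 32.5, 19.6 and 31.5 FPKM in Herb. The OVA libraries were the 3 lowest, and Herb lay within the range of Saline but for its lowest library. The means were 29.8 ± 10.9 (SD, n = 3), 8.93 ± 3.05 (SD, n = 3) and 28.2 ± 5.90 FPKM (SD, n = 4). The difference was -1.63 ± 0.32 in OVA vs. Saline (adjusted p = 0.00193) and 1.58 ± 0.30 in Herb vs. OVA (adjusted p = 0.00716). After rescaling it was -0.55 ± 0.27 (adjusted p = 0.138), with OVA and Saline overlapping, and 0.96 ± 0.26 (adjusted p = 0.077), with all Herb libraries at 21.5 to 30.9 above the OVA libraries at 9.56 to 17.3. Herb vs. Saline gave -0.05 ± 0.30 as deposited and 0.41 ± 0.26 rescaled, neither past the threshold.

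The balance of Lcn2 to S100a8 within a library does not depend on the scale of that library. It was 0.844, 5.56 and 0.413 in Saline, 1.73, 3.02 and 7.60 in OVA, and 1.63, 0.804, 2.32 and 1.84 in Herb. The groups overlapped in all comparisons, and the difference of the mean log2 ratio was 1.45 in OVA vs. Saline (two-sided exact permutation test, p = 0.3), -1.15 in Herb vs. OVA (p = 0.171, exact) and 0.30 in Herb vs. Saline (p = 0.857, exact). Adjusted over these 3 comparisons the exact values were 0.45, 0.45 and 0.857, and the smallest p the design allows is 0.1 for 3 against 3 and 0.0571 for 3 against 4 mice. The ratios of S100a8 to S100a9 and of Ngp to Camp were not computed, because libraries were listed at 0.

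Mmp8, neutrophil collagenase, was below 1 FPKM in each OVA library. It stood at 1.51, 14.3 and 4.51 FPKM in Saline, 0.421, 0.631 and 0.258 FPKM in OVA, and 3.92, 4.80, 1.50 and 2.19 FPKM in Herb. OVA did not overlap either group, also after rescaling. The difference in OVA vs. Saline was -2.06 ± 0.58 (adjusted p = 0.0118) and rescaled -1.44 ± 0.53 (adjusted p = 0.055). Herb vs. OVA missed the threshold at 1.44 ± 0.54 (adjusted p = 0.0543, rescaled 0.169), although it passed without Herb replicate 3 at 1.66 (adjusted p = 0.0456). Leaving out Saline replicate 2, the highest library, gave -1.38 in OVA vs. Saline (adjusted p = 0.0238).

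Mmp9, the gelatinase that cleaves denatured collagen and elastin, showed the same order of groups at a lower level. Its values were 1.11, 1.87 and 2.24 FPKM in Saline, 0.220, 0.453 and 0.470 FPKM in OVA, and 1.11, 1.86, 0.779 and 1.98 FPKM in Herb. The OVA libraries lay below all others, also after rescaling. The difference was -0.97 ± 0.24 in OVA vs. Saline (adjusted p = 0.00664) and 0.79 ± 0.23 in Herb vs. OVA (adjusted p = 0.021). Rescaled, it was -0.47 ± 0.22 (adjusted p = 0.115) and 0.56 ± 0.20 (adjusted p = 0.13), and Herb vs. OVA missed the threshold without OVA replicate 1 (0.70, adjusted p = 0.0739) and without Herb replicate 2 (0.70, adjusted p = 0.0529). Herb vs. Saline differed by -0.18 ± 0.23 for Mmp9 (rescaled 0.09 ± 0.20) and by -0.62 ± 0.54 for Mmp8 (rescaled -0.27 ± 0.49), none past the threshold.

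Ltf, which encodes the iron-binding protein lactoferrin, was higher in OVA than in Saline, where Lcn2 was lower as deposited but not called after rescaling. It was at 0.191, 0.594 and 0.996 FPKM in Saline, 1.80, 3.37 and 19.7 FPKM in OVA, and 7.83, 4.30, 10.1 and 26.3 FPKM in Herb. All 7 ovalbumin-treated mice lay above all 3 Saline mice, and OVA and Herb overlapped. Ltf rose by 2.02 ± 0.76 in OVA vs. Saline (adjusted p = 0.043) and by 2.81 ± 0.71 in Herb vs. Saline (adjusted p = 0.023), and rescaled by 2.69 ± 0.80 (adjusted p = 0.0254) and 2.92 ± 0.75 (adjusted p = 0.0345). OVA replicate 3 carried much of the former: without it the difference was 1.16 (adjusted p = 0.129). The OVA vs. Saline call was also lost without Saline replicate 1 (adjusted p = 0.112), 2 (0.0855) or 3 (0.0657) or OVA replicate 2 (0.0522). With no filter (adjusted p = 0.0736), with 2 groups in the fit (0.054) and over transcript rows (0.0553) it was lost as well. Quantile normalization lost the Herb vs. Saline call (2.90, adjusted p = 0.0608). The Herb vs. Saline call was also lost without Saline replicate 1 (adjusted p = 0.0723), 2 (0.0714) or 3 (0.0545) or Herb replicate 3 (0.0542) or 4 (0.0518), at differences of 2.37 to 2.98. Herb vs. OVA differed by 0.79 ± 0.71 (adjusted p = 0.389) and rescaled by 0.23 ± 0.75 (adjusted p = 0.874).

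Ngp, a cystatin-like protein of the specific granule, was high in Herb against both other groups. Its level was 0.900, 0.375 and 0.324 FPKM in Saline, 0.458, 0.333 and 0.186 FPKM in OVA, and 3.04, 2.93, 1.77 and 3.95 FPKM in Herb. The lowest Herb library stood above the highest of the other 6, while Saline and OVA overlapped. The estimated fragments behind these values were 4.62 to 16.5 per library in Saline and OVA and 46.1 to 94.2 in Herb. Ngp rose by 1.54 ± 0.22 in Herb vs. OVA (adjusted p = 0.00716) and by 1.35 ± 0.22 in Herb vs. Saline (adjusted p = 0.00845). Rescaled, the differences were 1.31 ± 0.20 (adjusted p = 0.0329) and 1.45 ± 0.20 (adjusted p = 0.0118), and over the 14 alternatives fitted for each comparison, leaving out each library included, the adjusted p was 0.0059 to 0.0469 and 0.00763 to 0.0404. OVA vs. Saline gave -0.19 ± 0.23 as deposited and 0.14 ± 0.22 rescaled, neither past the threshold.

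Camp, the precursor of the antimicrobial peptide CRAMP, had the same order of groups. It stood at 0.572, 0.261 and 0 FPKM in Saline, 0.109, 0.605 and 0 FPKM in OVA, and 2.40, 2.18, 1.44 and 2.39 FPKM in Herb, again without overlap between Herb and the others. The Herb values rested on 23.3 to 35.3 estimated fragments and the others on 10.6 at most, and in the 2 libraries listed at 0 a count of 3 fragments would be 0.193 and 0.195 FPKM. With no filter, Camp rose by 1.34 ± 0.22 in Herb vs. OVA (adjusted p = 0.0116, where 21.0% of all genes were higher) and by 1.29 ± 0.22 in Herb vs. Saline (adjusted p = 0.0138, where 2.18% were). Rescaled with no filter, a setting added after the values were seen, it differed by 1.20 ± 0.21 in Herb vs. OVA (adjusted p = 0.0656, where 0.134% of genes were higher) and rose by 1.34 ± 0.21 in Herb vs. Saline (adjusted p = 0.0208, where 4.47% were). OVA vs. Saline differed by -0.05 ± 0.23 as deposited and by 0.14 ± 0.23 rescaled, neither past the threshold.

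Camp, Ngp and Ltf mark a stretch of 1195390 bases, chr9:109847377-111042766, in which 16 other genes were tested. Of these, 1 was higher in Herb vs. Saline, Mir6236 at 2.65 on the log2 scale, and limma called 0 lower, with 1 at an unadjusted p under 0.05. The median of the 16 was 0.10 in Herb vs. Saline, beside -0.27 over all genes. Rescaled, 4 of the 16 were higher, where 10.6% of all genes were, namely Smarcc1, Mir6236, Klhl18 and Nradd, and the median of the 16 was 0.35, beside 0.09 over all genes. In Herb vs. OVA 5 were higher as deposited, where 44.0% of all genes tested were. Mir6236 alone was lower, at -2.05 (adjusted p = 0.0209), where 0.446% of all genes were. After rescaling limma called 0, with 1 lower at an unadjusted p under 0.05. In OVA vs. Saline Mir6236 was higher than in Herb vs. Saline, at 4.71 as deposited (adjusted p = 0.000253) and 5.86 rescaled (adjusted p = 0.000783). Of the 16, 1 was higher there as deposited, where 3.28% of all genes were, and 3 were lower, where 57.9% were. Rescaled, 9 were higher, where 24.1% were, and limma called 0 lower. The neighbours of Ngp, Ptpn23 and Klhl18, and that of Ltf, Als2cl, passed no threshold in Herb vs. Saline as deposited. Rescaled, Klhl18 was higher by 0.43 (adjusted p = 0.0471), and the values were 0.35 for Ptpn23 (adjusted p = 0.738) and 1.63 for Als2cl (adjusted p = 0.0716).

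**Figure D4:**
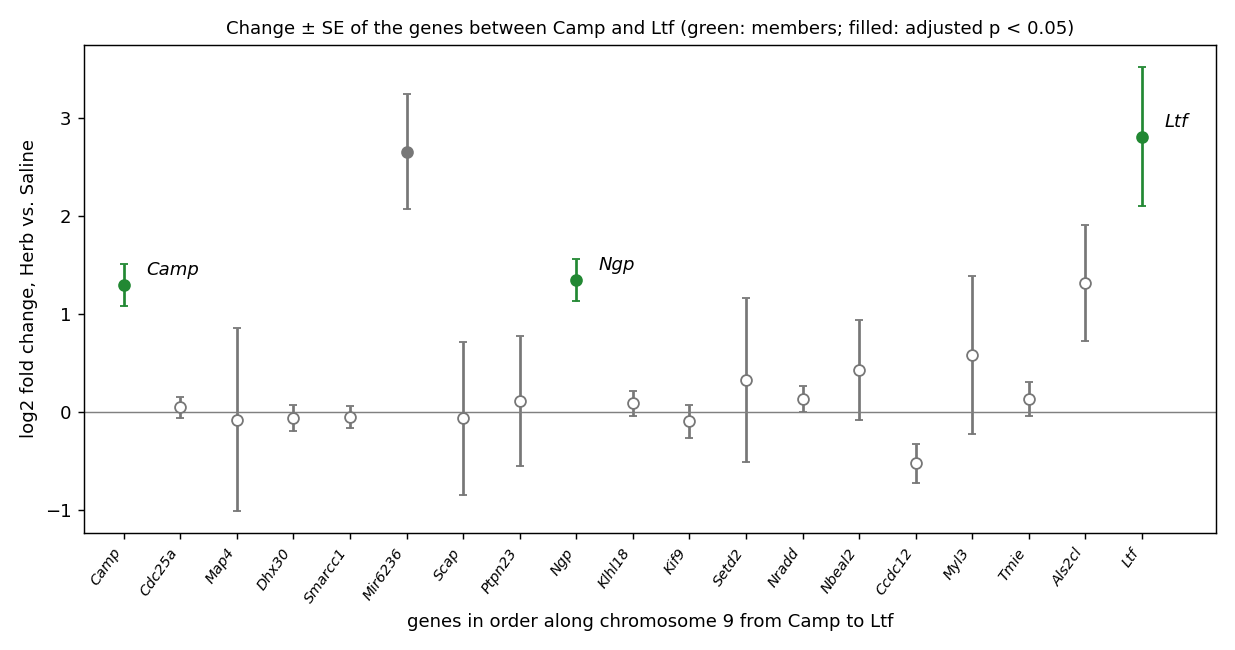
Log2 fold change ± SE in Herb vs. Saline, as deposited, of the genes from Camp to Ltf in their order along chromosome 9, with the 3 granule genes in green, the 16 others in grey and filled points at an adjusted p under 0.05. Mir6236 (2.65) is the only filled grey point, and most of the others lie near 0.

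Elane, neutrophil elastase of the azurophil granule, was near the limit of the data. It was listed at 0 in all 6 Saline and OVA libraries and in Herb replicate 3, and stood at 0.0269, 0.0737 and 0.0205 FPKM in Herb replicates 1, 2 and 4. The highest of these corresponds to 1.07 estimated fragments, and 3 fragments would be 0.104 to 0.207 FPKM depending on the library. A difference was not detectable at this depth. Of the other azurophil genes, Prtn3 (proteinase 3) reached 0.633 FPKM at most and Mpo (myeloperoxidase) was above 0 in 1 library only, at 0.0326 FPKM.

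Csf3r, the receptor for G-CSF and the only membrane protein among the 10, had 3 rows that took turns from library to library. The sum stood at 0.130, 1.32 and 1.28 FPKM in Saline, 0.264, 1.24 and 0.661 FPKM in OVA, and 2.46, 0.264, 2.25 and 3.12 FPKM in Herb. Of the Herb libraries 3 were above all Saline and OVA libraries, and Herb replicate 2 lay among the lowest. No comparison passed the threshold, with -0.12 ± 0.47 in OVA vs. Saline, 0.72 ± 0.44 in Herb vs. OVA (adjusted p = 0.2) and 0.61 ± 0.44 in Herb vs. Saline (adjusted p = 0.324). Without Herb replicate 2, Herb vs. OVA was 1.10 (adjusted p = 0.0341). Rescaled, OVA vs. Saline turned to 0.34 ± 0.46, and Herb vs. OVA was 0.46 ± 0.43 and Herb vs. Saline 0.79 ± 0.43, none past the threshold. The coding row NM_007782 was listed at 0 in Saline replicate 1, in Herb replicate 2 and throughout the OVA group, and the non-coding row NR_045561 was above 0 in every library, at 0.130 to 1.11 FPKM.

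Other genes of the same granules and of the cells that carry them were taken by list. The counts of each list stand beside the shares over all genes tested. As deposited, 57.9% were lower and 3.28% higher in OVA vs. Saline, 44.0% were higher in Herb vs. OVA, and 22.7% were lower and 3.32% higher in Herb vs. Saline. Rescaled, 17.2% were lower and 24.1% higher in OVA vs. Saline, 0.348% were higher in Herb vs. OVA, and 5.11% were lower and 10.6% higher in Herb vs. Saline. The medians over all genes were -0.75, 0.48 and -0.27 as deposited, and each set of 3 list medians below is as deposited and in the same order of comparisons. Of 11 specific granule genes, 8 were tested. As deposited, 3 were lower in OVA vs. Saline and Ltf higher, 4 were higher in Herb vs. OVA and 3 in Herb vs. Saline, and the list medians were -0.62, 1.22 and 0.21. The member with the highest level among those not described above was Chil3, the chitinase-like protein Ym1 that is also abundant in macrophages. Chil3 stood at 87.5, 163 and 71.0 FPKM in Saline, 69.7, 256 and 142 FPKM in OVA, and 514, 320, 593 and 454 FPKM in Herb, and rose by 1.74 ± 0.45 in Herb vs. OVA (adjusted p = 0.015) and by 2.18 ± 0.45 in Herb vs. Saline (adjusted p = 0.0128). Rescaled, Chil3 gave 1.06 ± 0.44 (adjusted p = 0.163) and 2.65 ± 0.44 (adjusted p = 0.0133). Rescaled, Ngp alone of the list was higher in Herb vs. OVA, Ltf, Ngp and Chil3 were higher in Herb vs. Saline, and Ltf and Chil3 were higher in OVA vs. Saline. Hp, haptoglobin, stood at 25.2 to 209 FPKM and passed no threshold in OVA vs. Saline (-1.14, adjusted p = 0.124) or Herb vs. OVA (0.12, adjusted p = 0.877).

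Of 7 genes on the azurophil granule list, Elane, Mpo, Prtn3, Ctsg and Prss57 did not pass the filter. The 2 that passed were Ctsc (cathepsin C, which activates the granule serine proteases) and Serpinb1a (an inhibitor of elastase). Both fell in OVA vs. Saline, by 2.08 and 1.43 on the log2 scale, rose in Herb vs. OVA and were below Saline in Herb, and after rescaling both were still lower in OVA vs. Saline and passed no threshold elsewhere. Of 6 genes on the gelatinase granule list, 4 were tested. In OVA vs. Saline, Mmp9 was lower and Arg1 (arginase) higher, at 0, 0.213 and 0.179 FPKM in the Saline mice against 1.43, 4.14 and 19.2 FPKM in the OVA mice. Mmp9 was higher in Herb vs. OVA and Arg1 in Herb vs. Saline. Which cells of the lung made Arg1 was not tested, so its rise is not a result about neutrophil granules. The list medians were 0.12, 0.48 and 0.60. Rescaled, Arg1 and Slc11a1 were higher in OVA vs. Saline and Slc11a1 in Herb vs. Saline.

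Transcripts of mature neutrophils are the markers of the cells that carry these granules. Of 22, 21 were in the table and 12 were tested, of which 6 were lower in OVA vs. Saline, 6 higher in Herb vs. OVA and 1 lower in Herb vs. Saline (G0s2), with list medians of -1.08, 0.84 and -0.05. These counts, 6 of 12, lie near the 57.9% of all genes that were lower in OVA vs. Saline and the 44.0% that were higher in Herb vs. OVA. Rescaled, the list medians were -0.64, 0.39 and 0.23, beside 0.07, 0.01 and 0.09 over all genes. Retnlg, the most abundant and a marker of neutrophils, stood at 8.03, 43.6 and 16.6 FPKM in Saline, 5.31, 10.2 and 33.7 FPKM in OVA, and 19.8, 20.9, 28.4 and 28.3 FPKM in Herb, and passed no threshold. Cxcr2, the receptor for neutrophil-attracting chemokines, fell by 1.39 ± 0.37 in OVA vs. Saline (adjusted p = 0.00911) and rose by 1.21 ± 0.34 in Herb vs. OVA (adjusted p = 0.0206). Rescaled, Cxcr2 passed neither threshold, at -0.66 ± 0.32 (adjusted p = 0.129) and 0.84 ± 0.30 (adjusted p = 0.126). Rescaled, Hdc and Slfn4 were higher and G0s2 lower in OVA vs. Saline, and G0s2 was lower in Herb vs. Saline.

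The sum of the fixed neutrophil markers, of which 5 of 6 were in the table and none was at 0 in all libraries, was 40.3 to 474 FPKM in Saline, 9.25 to 37.9 FPKM in OVA and 41.1 to 128 FPKM in Herb. The markers hold S100a8, S100a9 and Csf3r themselves. S100a9 alone held 416 of 474 FPKM in Saline replicate 2 and 132 of 208 FPKM in Saline replicate 3. In Herb replicate 2 it held 60.7 of 128 FPKM, and in the other Saline and Herb libraries it was listed at 0. Sums of markers of other cells are given for the same groups. The macrophage sum (8 of 8) was 41.2 to 74.2, 28.3 to 58.7 and 68.5 to 109 FPKM in Saline, OVA and Herb, the monocyte sum (6 of 6) 16.5 to 27.6, 6.28 to 14.9 and 12.0 to 29.8 FPKM, and the eosinophil sum (8 of 8) 24.4 to 48.4, 4.76 to 10.3 and 10.1 to 14.6 FPKM. Of the 8 eosinophil markers, only 3 had a mean of at least 1 FPKM, namely Ear1, Ear2 and Siglecf. Over the 10 libraries the eosinophil sum thus rests mainly on these 3 genes. Whether it follows the number of eosinophils in the tissue was not tested. Of the 6 monocyte markers, 3 did. The erythroid sum, which follows the blood in the tissue (5 of 6), was 5733 to 6969, 31.0 to 561 and 1077 to 1584 FPKM, and the platelet sum (4 of 4) 6.23 to 9.72, 1.80 to 3.91 and 5.67 to 8.83 FPKM. The club and mucous airway sum (6 of 6) was 12905 to 22882, 2566 to 6060 and 8060 to 12071 FPKM, the alveolar epithelium sum (6 of 6) 3480 to 4543, 389 to 782 and 978 to 1979 FPKM, and the endothelium sum (5 of 5) 327 to 397, 56.5 to 101 and 128 to 261 FPKM. The airway sum does not follow each of its genes. Of the 6, 4 had a positive difference in OVA vs. Saline, with a list median of 1.385 as deposited and 1.85 rescaled. As deposited, Clca1 was called higher there, and Scgb1a1 and Scgb3a2 lower. The part of these other cells in the results for the granule genes was not tested. No marker of these lists was at 0 in every library. Rescaled, the neutrophil sum was 27.6 to 328 in Saline, 16.0 to 57.6 in OVA and 40.3 to 110 in Herb, so that OVA overlapped both other groups. In the same order and rescaled, the macrophage sum was 28.4 to 51.3, 49.0 to 89.2 and 58.6 to 107, the monocyte sum 11.3 to 19.0, 9.73 to 20.7 and 13.2 to 25.5, and the eosinophil sum 16.8 to 33.4, 7.72 to 14.3 and 10.4 to 13.3. The erythroid sum was 3962 to 4796, 47.1 to 779 and 1059 to 1356, and the platelet sum 4.27 to 6.72, 3.11 to 5.95 and 5.16 to 8.68. The airway sum was 8841 to 15814, 4438 to 9217 and 7947 to 10333, the alveolar sum 2395 to 3112, 592 to 1085 and 1076 to 1694, and the endothelium sum 226 to 272, 85.9 to 140 and 125 to 224.

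The receptors through which calgranulins act on other cells include Tlr4 and Ager. Of 7 listed, all were tested, and 5 were lower in OVA vs. Saline and the same number higher in Herb vs. OVA, with 3 lower in Herb vs. Saline and list medians of -1.73, 1.03 and -0.74. Tlr4, the endotoxin receptor, stood at 10.4, 12.3 and 11.1 FPKM in Saline, 2.41, 4.83 and 4.14 FPKM in OVA, and 6.17, 7.93, 6.04 and 7.02 FPKM in Herb, so that the 3 groups did not overlap as deposited. It fell by 1.39 ± 0.20 in OVA vs. Saline (adjusted p = 0.00036) and rose by 0.73 ± 0.19 in Herb vs. OVA (adjusted p = 0.0139), and rescaled it gave -0.40 ± 0.16 (adjusted p = 0.0726) and 0.17 ± 0.15 (adjusted p = 0.479). Rescaled, Ager, Cd36 and Emb were lower in OVA vs. Saline, Emb was higher in Herb vs. OVA and Cd36 lower in Herb vs. Saline. Lrp2, an uptake receptor for lipocalin-2 and the 1 of 2 such receptors tested, was lower in OVA and in Herb than in Saline, also after rescaling.

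Of the 6 subunits of the NADPH oxidase, which makes the oxidants of the phagosome, Cybb, Cyba and Rac2 fell in OVA vs. Saline and rose in Herb vs. OVA, with list medians of -0.78, 0.72 and -0.08. In Herb vs. Saline limma called 0, with 1 at an unadjusted p under 0.05, and after rescaling Ncf4 alone passed, higher in both ovalbumin groups than in Saline. Of 12 neutrophil chemoattractants and growth factors, 4 were tested, with list medians of -0.41, 0.44 and -0.15. Cxcl15, a chemokine of lung epithelium, and Il1a fell in OVA vs. Saline, Cxcl15 rose in Herb vs. OVA, and Il1a was lower in Herb than in Saline. Cxcl1, a main ligand of Cxcr2, stood at 0.240 to 1.13 FPKM in the Saline mice, 0.465 to 1.56 FPKM in the OVA mice and 0.833 to 3.75 FPKM in the Herb mice. Rescaled, Cxcl5 alone was called, higher in OVA than in Saline.

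Antiproteases restrain the granule enzymes. Of 8 listed, 7 were tested. In OVA vs. Saline 5 were lower and Timp1, an inhibitor of metalloproteinases, was higher, in Herb vs. OVA 5 were higher, and in Herb vs. Saline Timp1 was higher and Serpinb1a lower, with list medians of -1.28, 0.96 and -0.32. Rescaled, Timp1 was higher in both ovalbumin groups than in Saline, and so was Serpina3n, which turned direction in OVA vs. Saline from lower as deposited. Slpi was higher in Herb vs. Saline, and Serpinb1a, Timp2 and Timp3 were lower in OVA vs. Saline. Of 7 granulocyte transcription factors, 5 were tested, with list medians of -0.72, 0.69 and 0.05. Cebpd and Spi1, which encodes PU.1, fell in OVA vs. Saline, Spi1 rose in Herb vs. OVA, and limma called 0 in Herb vs. Saline, with 0 at an unadjusted p under 0.05. Rescaled, Cebpb and Runx1 were higher in OVA than in Saline, and Cebpb in Herb than in Saline.

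In Herb vs. OVA after rescaling, limma called 0 genes of the azurophil granule, gelatinase granule, mature neutrophil, NADPH oxidase, chemoattractant, antiprotease, transcription factor and lipocalin-2 receptor lists. At an unadjusted p under 0.05, Ctsc and Serpinb1a of the azurophil list, 1 gelatinase granule gene, 2 mature neutrophil genes and 2 antiproteases were higher. At the same threshold, 1 transcription factor and 1 lipocalin-2 receptor were lower.

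The genes whose profile over the 10 libraries lay nearest to the mean profile of S100a8 and S100a9, by root mean square difference of centred log2(FPKM + 1), were Hbp1 (0.90), Rab11b (1.08), Cyp4b1-ps2 (1.14), Pdk4 (1.14) and Fmr1 (1.15). Hbp1 encodes an HMG-box transcription factor and Pdk4 a kinase that restrains pyruvate dehydrogenase. Hbp1 stood at 4.12, 29.6 and 21.6 FPKM in Saline, 0.729, 1.52 and 1.25 FPKM in OVA, and 2.18, 10.3, 4.84 and 2.18 FPKM in Herb, with its highest Saline and Herb values in the libraries where S100a9 was highest. The likeness describes these 10 libraries, and the profile it was measured against holds the zeros of S100a9.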

How the data were processed

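RNA of 10 lungs (3 Saline, 3 OVA, 4 Herb, grouped by the sample labels) was sequenced in pairs of reads on an Illumina instrument from libraries that select messenger RNA. Per the submitters' processing notes and the study's methods, the authors trimmed reads with cutadapt 1.10, aligned them with Hisat2 to mm10, assembled and quantified transcripts with StringTie 1.3.3b and ballgown, and tested read counts with edgeR 3.16.5 (notes). The authors deposited FPKM per transcript and mouse with no further scaling between libraries, so a class of RNA that takes more fragments in 1 library lowers all other values there.

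Because the values are FPKM, no count model was used. Rows were summed per symbol, log2(FPKM + 1) was fitted with limma 3.58.1 in R 4.3.3 (3 group means, all 10 libraries, no covariates, intensity trend), and p-values were adjusted by Benjamini-Hochberg over the 11205 genes with a mean of at least 1 FPKM, with calls at 0.05. Such fold changes understate the change of low genes. The fit was tested on simulated data. Alternatives were a pseudocount of 0.1, no filter, common 75th percentile, common protein-coding sum, quantile normalization, 2 groups in the fit, a replicate block and leaving out each library. Depth was estimated from the whole-fragment steps of low values, and covers counting error only. The ratios used two-sided exact permutation tests (scipy 1.17.1). Promoters and positions are RefSeq's on GRCm38.p6.

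The genes and lists were chosen with earlier results of these data known. All 10 genes are named, the pathway lists are given by counts with up to 4 genes of highest mean level and genes that passed the test, and 5 genes by likeness. The lists cover azurophil, specific and gelatinase granules, mature neutrophils, calgranulin and lipocalin-2 receptors, NADPH oxidase, chemoattractants, antiproteases and transcription factors, besides cell markers.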

Additional observations from a re-analysis of the deposited data

Results flagged for a closer look

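The S100a9 level of Herb replicate 2, 60.7 FPKM, stood apart from those of the other 3 Herb libraries, which were listed at 0. Its gap to the nearest library exceeded the critical value of Dixon's test for 4 samples, the only 1 of 20 highest and lowest Herb values of the 10 genes to do so, and chance alone gives such a gap in about 1 of 20 groups. Because the other 3 values are exact zeros, which can be failed estimates, the gap equals the whole range by construction and does not show that the mouse stands apart. With the unnamed models added, the Herb libraries were at 38.9, 90.7, 19.1 and 31.1 FPKM. In the same library S100a8 was also the highest of the Herb group, at 40.5 FPKM, whereas Csf3r was the lowest, at 0.264 FPKM.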

How the results depend on the processing

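Values rest on single mice and FPKM, and levels under about 1 FPKM on few fragments. Of the results of the single genes under the alternatives, 265 kept direction and side of the threshold, 40 lost and 8 gained a call, 24 values moved and none of the called values changed direction. Genes called were 6853 in OVA vs. Saline, 4982 in Herb vs. OVA and 2921 in Herb vs. Saline as deposited (368 higher and 6485 lower, 4932 and 50, 372 and 2549). At a common 75th percentile they were 4617, 90 and 1758 (2695 and 1922, 39 and 51, 1185 and 573), at a common protein-coding sum 5226, 621 and 2385 (4239 and 987, 70 and 551, 2065 and 320), and under quantile normalization 4004, 157 and 841 (2087 and 1917, 56 and 101, 459 and 382). Of the 8 granule genes tested, 5, 4 and 2 were called as deposited, 1, 1 and 2 at a common 75th percentile or protein-coding sum, and 1, 1 and 1 under quantile normalization. These alternatives remove the difference in scale by construction. Leaving out each library gave 6143 to 6538, 3225 to 5069 and 897 to 3156 genes, and 4 to 5, 3 to 5 and 1 to 2 granule genes. The lowest counts came without OVA replicate 1 in Herb vs. OVA and without Saline replicate 2 in Herb vs. Saline, and the cause was not tested. The log2 ratio of Lcn2 to S100a8 was then between 0.66 and 2.53 in OVA vs. Saline, between -1.64 and -0.57 in Herb vs. OVA, and between -0.49 (without Saline replicate 3, the reversed direction) and 1.38 in Herb vs. Saline, where 0.02 was found without Saline replicate 1.

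Groups shared replicate numbers in the labels. Same-numbered samples deviated together with correlations of -0.0087 to 0.0953, which lay within the range of other pairs, -0.17 to 0.227. Whether same-numbered samples share a batch was not tested. With the replicate block, 6603, 4040 and 1342 genes and 5, 2 and 2 granule genes were called.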
